A study of Mus musculus with 6 samples.

Results

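Translation initiation and elongation factors were examined as a gene family in muscle satellite cells. The family was chosen by name: protein-coding mouse genes whose symbol starts with Eif and a digit from 1 to 6, or with Eef and 1 or 2, leaving out the Eif2ak kinases and the Y-linked Eif2s3y. This gave 66 genes, 64 of which were among the 27179 gene IDs of each count file, and 60 of these passed the filter on low counts. By role, 42 genes encode initiation factors, 6 encode elongation factors and 18 encode regulators, modifying enzymes and relatives. Of these, 41 initiation, 5 elongation and 14 other genes were tested.

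RNA-seq libraries came from satellite cells, the muscle stem cells that lie beside the fibres and express Pax7. All animals were wild type on the C57Bl/6N background, and the groups were 3 libraries from mice on a high-fat diet and 3 from mice on chow, with no other difference and no age or duration of diet named in the labels. Cells were sorted by flow cytometry, and after removal of ribosomal RNA, total RNA of integrity number 8.5 to 9.4 gave single reads of 75 bases. The labels do not say that the replicates came from separate animals, so p-values reflect how far these libraries spread, and that spread may be technical.

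Translation begins when initiation factors bring the small ribosomal subunit with initiator tRNA to the capped end of a messenger RNA and scan to the start codon. Elongation factors then deliver each aminoacyl-tRNA and move the ribosome along by a codon at a time. In satellite cells, which rest for long periods, protein synthesis is held low through phosphorylation of the initiation factor eIF2, and it increases on activation.

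Total counts ran from 14930394 to 18217818 per library. With edgeR's quasi-likelihood test and Benjamini-Hochberg adjustment, 34 of 13202 tested genes passed an adjusted p under 0.05 (0.258%), and the median log2 fold change over all tested genes was -0.01. High-fat diet library 1 and chow library 3 stood apart from the others in earlier results of these data, and medians without both are given for the groups of translation factors. All 8 markers of satellite cells were read in every library. Their sum, 3858 to 4817 CPM (counts scaled to a library of standard size) on the high-fat diet and 3958 to 4740.3 CPM on chow, overlapped. Sdc4 alone gave 1480 to 1995.5 CPM of it on the high-fat diet and 1680 to 2567 CPM on chow. The sum therefore says little of the other markers, and the 8 did not move together. Pax7 was at a mean of 234 CPM on the high-fat diet and 402 CPM on chow, without overlap, at an adjusted p of 0.180 by edgeR (0.0183 with no filter on low counts), 0.0123 by DESeq2 and 0.0281 by limma-voom, while Itga7 (369 and 245 CPM) and Chrdl2 (436 and 296 CPM) were higher on the high-fat diet without overlap and the other 5 overlapped, Myf5 at 633 and 623 CPM. Macrophage Adgre1 and T cell Cd3e had no reads. Markers of other cells were low in sum: 9 of mature fibres at 29.6 to 38.7 CPM on the high-fat diet and 39.1 to 44.8 CPM on chow, 6 of endothelium at 222 to 337 and 237 to 292 CPM, 6 of fibro-adipogenic cells at 292 to 406 and 261 to 352 CPM, 5 of pericytes and smooth muscle at 67.9 to 158 and 103 to 184 CPM, and 6 of immune cells at 7.61 to 23.5 and 17.4 to 31.4 CPM. The fibre markers did not overlap between the diets. Tek was the largest part of the endothelial sum, at 132 to 183 CPM on the high-fat diet and 105 to 216 CPM on chow. That sum therefore says little of the other endothelial markers. Of the 6, only Kdr did not overlap, with means of 29.1 CPM on the high-fat diet and 10.97 CPM on chow. Its unadjusted p was 0.0156 and its adjusted p 0.442 by edgeR's quasi-likelihood test. The part of the satellite cell, fibre and endothelial markers in the results on translation factors was not tested.

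Promoter stretches were printed for 5 translation factors chosen after their values were seen. The elongation factors Eef1a1, Eef2 and Eef1b2 and the eIF3 subunit Eif3f were lower on the high-fat diet in every library than in any chow library. The scaffold Eif4g1 was higher. Each line gives up to 100 bases that end just before the gene, 5′ to 3′ on the gene's strand, from RefSeq's promoters of build GRCm38.p6. Capitals mark matches on either strand to any of 6 motifs. These were the core of the TATA box with the letters TATAAA, the CCAAT box, the core of sites for ETS factors with the letters CCGGAAG, the core of the GC box with the letters GGGCGG, the E-box with the letters CACGTG and the cyclic-AMP response element with the letters TGACGTCA. No marked matches overlap one another in these stretches.
Eef1a1, chr9:78481725-78481824, minus strand: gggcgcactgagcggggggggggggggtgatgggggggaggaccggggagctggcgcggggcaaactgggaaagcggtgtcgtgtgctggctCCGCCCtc
Eef2, chr10:81176531-81176630, plus strand: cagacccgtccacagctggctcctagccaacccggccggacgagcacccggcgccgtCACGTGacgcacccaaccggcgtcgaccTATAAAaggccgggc
Eef1b2, chr1:63176731-63176830, plus strand: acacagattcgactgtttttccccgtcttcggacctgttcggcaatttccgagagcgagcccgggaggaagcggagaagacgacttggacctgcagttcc
Eif3f, chr7:108934315-108934414, plus strand: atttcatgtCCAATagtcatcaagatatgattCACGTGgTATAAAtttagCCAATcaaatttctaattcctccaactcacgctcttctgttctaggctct
Eif4g1, chr16:20672627-20672719, plus strand: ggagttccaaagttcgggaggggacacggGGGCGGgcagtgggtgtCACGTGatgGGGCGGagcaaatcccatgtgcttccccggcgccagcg

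The printed stretches differed in base composition, from 36% G and C at Eif3f to 76% at Eef1a1, with 70% at Eef2, 67.7% at Eif4g1 and 57% at Eef1b2. Eef2, Eif3f and Eif4g1 each held an E-box, the sequence bound by Myc and related factors, so the motif stood both at genes that were lower and at one that was higher on the high-fat diet. The Eef2 and Eif3f stretches also held a TATA box core, while the Eef1b2 stretch held none of the 6 motifs. Of the 66 genes, 50 had a promoter in the RefSeq table, 32 initiation factors, 4 elongation factors and 14 others, and Eef1akmt4 and its read-through with Ece2 share theirs. Within 250 bases before the start, the E-box was found at 14 of the 50 genes (28%) against 7.61% of 17492 protein-coding genes. The GC box core was found at 37 (74%) against 45.8%, the ETS core at 12 (24%) against 10.2%, the CCAAT box at 17 (34%) against 39.5%, the TATA box core at 4 (8%, Eef2, Eif2s1, Eif3b and Eif3f) against 13.7% and the cyclic-AMP response element at 0 against 2.2%. A match describes these letters and says nothing of binding.

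The translation factors spanned a wide range of levels, and the elongation factors Eef1a1 and Eef2 stood at the top. Per kilobase of exon, the mean level over the 6 libraries was 921 CPM for Eef1a1, which delivers aminoacyl-tRNA to the ribosome, and 561 CPM for Eef2, which drives translocation. The next in order were Eif4g2, a scaffold related to eIF4G that lacks the site for the cap-binding protein, at 128 CPM per kilobase, and Eif1, which guards start codon choice, at 112. Eif1a at 96.3, Eif3a at 95.8, Eif5 at 93.7 and Eef1b2 at 92.0 CPM per kilobase followed. The levels of Eef1a1, Eef2 and Eif4g2 did not overlap, while from Eif4g2 down each gene of this order overlapped with the next. The 5 subunits of eIF2B, the exchange factor that recharges eIF2 with GTP, were among the lowest initiation factors, from 1.59 to 7.96 CPM per kilobase. Counted without regard to length, 23 of the 60 tested genes averaged at least 100 CPM and 51 at least 10 CPM.

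**Figure D1:**
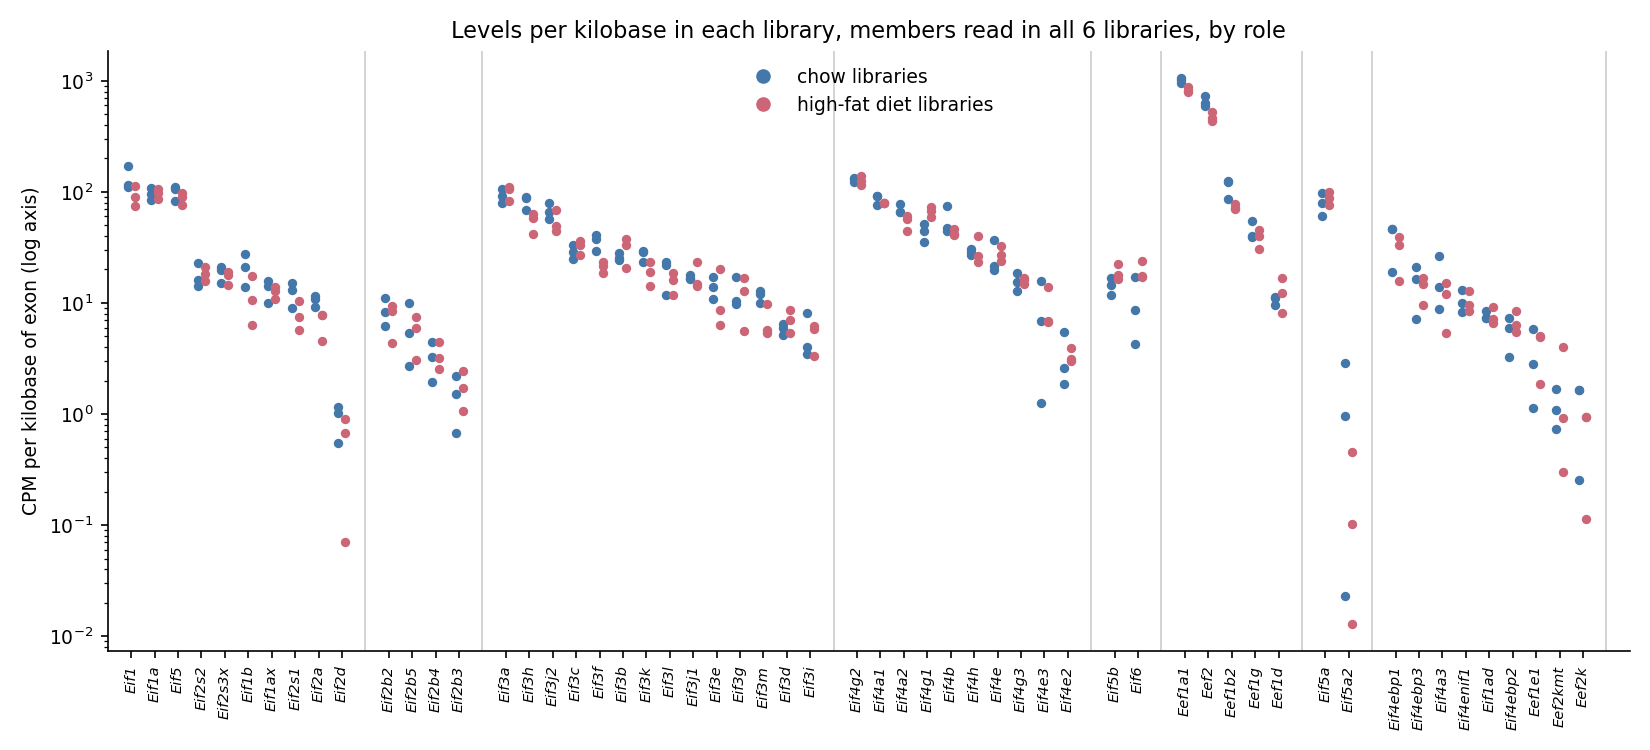
Level per kilobase of exon (log axis, CPM per kilobase) of the 56 translation factors with an exon length and at least 1 read in all 6 libraries, ordered by role and by level within a role, 1 point per library. Eef1a1 and Eef2 stand highest, with means of 921 and 561, and the high-fat diet points of both lie under their chow points.

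Eef1a2, the form of eEF1A that replaces Eef1a1 in mature muscle fibres, had no read in 5 libraries and 1 read in chow library 2. Eif4e1b, an oocyte relative of the cap-binding protein, had 1 read in chow library 1 and none elsewhere. A count of 3, the most that a library with no read still allows, corresponded to 0.165 to 0.201 CPM, and this covers counting error only. The methyltransferase genes Eef1akmt1 and Eef1akmt3 did not pass the filter either, and Eef1akmt4 with its read-through was not among the file's IDs. The other 60 genes include all 14 of eIF3, all 5 of eIF2B and all 10 of start site selection.

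The diet comparison asked which translation factors differ between satellite cells of high-fat diet and chow mice. None of the 60 tested genes passed edgeR's quasi-likelihood test at a Benjamini-Hochberg adjusted p under 0.05, where 0.258% of all genes did. DESeq2, limma-voom and limma-voom with quality weights each called 1 of them, Eef2, lower on the high-fat diet, against 0.892%, 0.417% and 0.485% of all genes called lower by these tools. At an unadjusted p under 0.05, edgeR had 8 of the 60 (13.3%) against 7.65% of all genes. Of the 8, 6 were lower on the high-fat diet (Eef2, Eef1b2, Eef1a1, Eif3f, Eif3h and Eif1) against 3.95% of all genes, and 2 were higher (Eif4g1 and Eif6) against 3.7%. Among genes averaging 100 CPM or more, where precision is better, 6 of 23 translation factors had such a p against 22.0% of all genes, and 6 of 23 had diets that did not overlap against 28.0%. Both shares, counted in either direction, are near the background. At that level, 3 of 4 elongation and 2 of 18 initiation factors were lower at such a p, against 10.9% of all genes. As many of each class had high-fat diet below chow without overlap, against 12.9%. In the other direction, 1 initiation factor, Eif4g1, was higher by both measures.

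The libraries of the diets did not overlap for 11 of the 60 genes (18.3%) against 15.3% of all genes. High-fat diet was above chow for Eif4g1 and Eif6, against 7.42% of all genes, and below it for 9 genes, against 7.87%: Eef2, Eef1b2, Eef1a1, Eif3f, Eif3h, Eif3m, Eif2a, Eif4a2 and Eef1akmt2. The log2 fold change was negative for 37 of the 60 (median -0.12) against 50.5% of all genes. Without the 2 libraries that stood apart, 45 were negative (median -0.20), 14 of the 60 had the other sign, and the 8 genes with an unadjusted p under 0.05 in all libraries kept theirs. It was under 0.5 in size for 41 genes and at least 1 for 3, the poorly read Eif5a2, Eef1akmt2 and Eef1aknmt. The median standard error was 0.30 on the log2 scale, and 0.21 for the 23 genes of at least 100 CPM.

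**Figure D2:**
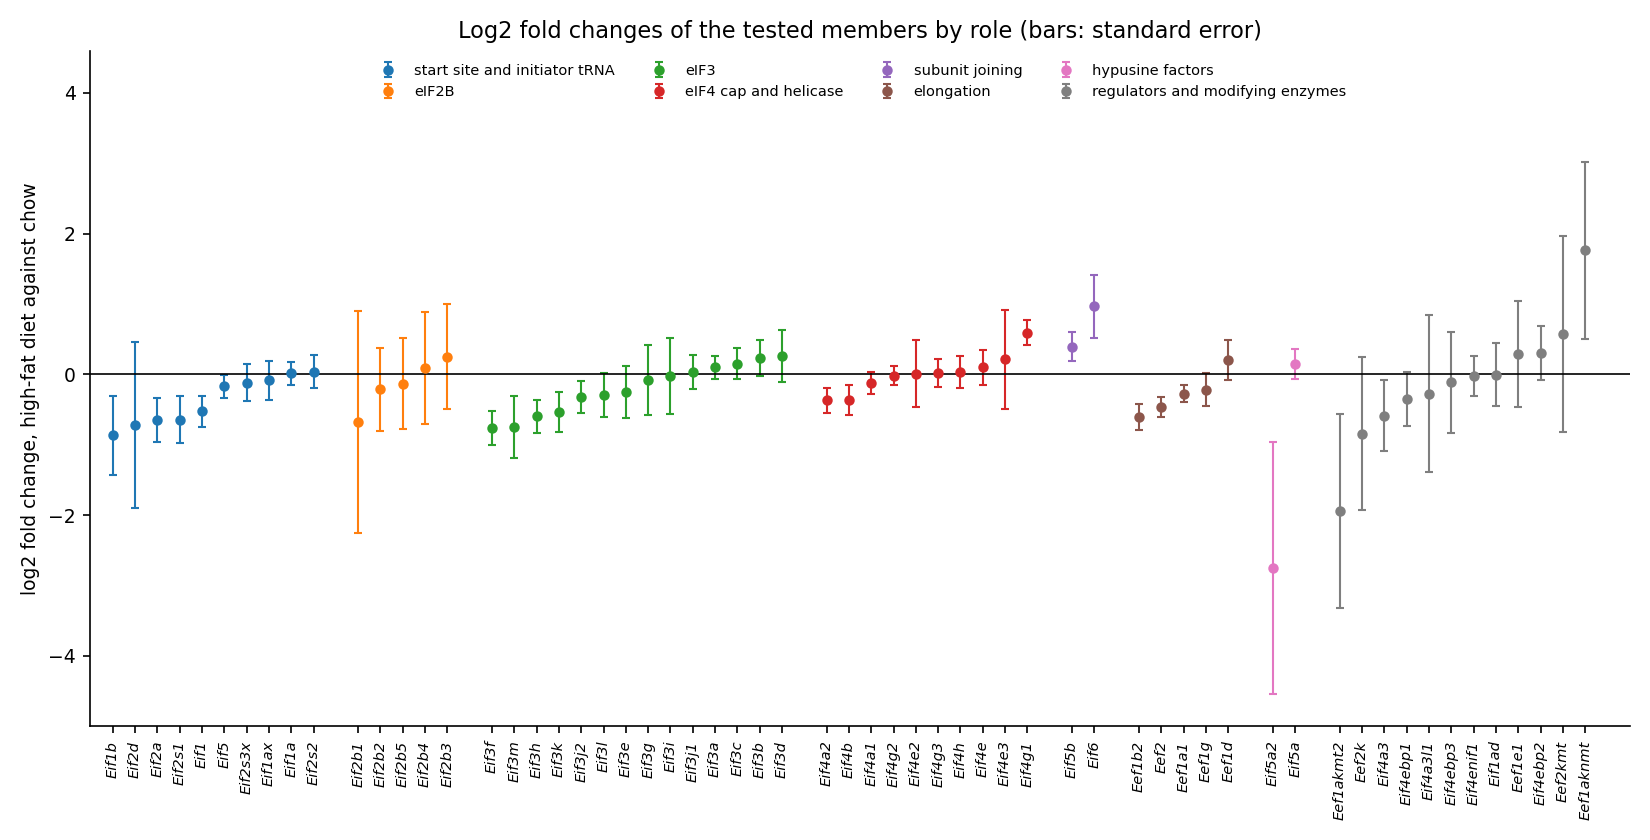
Log2 fold change, high-fat diet against chow, of the 60 tested translation factors grouped by role and ordered within a role, with bars of 1 standard error from edgeR. Most points lie within 0.5 of 0, those of Eef1b2, Eef2 and Eef1a1 lie below 0 by more than their standard error, and Eif4g1 and Eif6 lie above 0.

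Elongation factors were lower on the high-fat diet in 4 of 5 tested genes, and their median log2 fold change was -0.28. These are the factors that carry tRNA (eEF1A), reload eEF1A with GTP (the eEF1B subunits Eef1b2, Eef1d and Eef1g) and translocate the ribosome (eEF2). Because the samples are bulk RNA, fewer cells that express a gene and less RNA per cell cannot be told apart. Eef2 (Entrez ID 13629, chr10:81176631-81182509, GRCm38.p6) was read at 1729.5, 1541 and 1432 CPM in high-fat diet libraries 1, 2 and 3 and at 2431, 2093 and 1955 CPM in chow libraries 1, 2 and 3. The highest high-fat diet library stayed under the lowest chow library. Its mean was 1568 ± 150.5 CPM against 2159.9 ± 245 CPM (SD, n = 3 each), 1.38-fold lower, and the log2 fold change was -0.46 (SE 0.14, adjusted p = 0.305 by edgeR's quasi-likelihood test). DESeq2 gave an adjusted p of 0.0335, limma-voom 0.0122 and limma-voom with quality weights 0.00669 for Eef2, and the log2 fold change was -0.59 without the 2 libraries that stood apart.

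Eef1a1 (Entrez ID 13627, chr9:78478453-78481724) was read at 2188, 1965 and 2073 CPM on the high-fat diet and at 2637, 2394 and 2515 CPM on chow. Its libraries were tightly grouped within each diet and did not overlap between them. The log2 fold change was -0.28 (SE 0.12, adjusted p = 0.628 by edgeR's quasi-likelihood test), that is 1.21-fold lower, and it ranged from -0.31 to -0.24 when each library was left out in turn. Eef1b2 (Entrez ID 55949, chr1:63176831-63180486) encodes the subunit that exchanges GDP for GTP on eEF1A. It was read at 179.7, 179 and 196 CPM on the high-fat diet and at 309, 219 and 316 CPM on chow. Chow library 2 was the closest to the high-fat diet libraries but still above all of them. The log2 fold change of Eef1b2 was -0.61 (SE 0.19, adjusted p = 0.322), the lowest of the elongation factors. Exons of Eef1b2 overlap Ndufs1 and Gm27390, and those of Eef1a1 overlap Gm26377, so reads there cannot be assigned with certainty.

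The other tested subunits of eEF1B did not follow that order. Eef1g, the structural gamma subunit (Entrez ID 67160), was read at 79.4, 117 and 103 CPM on the high-fat diet and at 143, 103 and 104 CPM on chow, so the diets overlapped. Its log2 fold change was -0.22 (SE 0.24). Eef1d, the delta subunit, also an exchange factor (Entrez ID 66656), was read at 109, 79.7 and 52.6 CPM on the high-fat diet and at 62.6, 72.5 and 73.8 CPM on chow. High-fat diet library 1 was the highest of all 6 and library 3 the lowest. The log2 fold change of Eef1d was 0.21 (SE 0.29), and it was -0.06 without high-fat diet library 1.

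**Figure D3:**
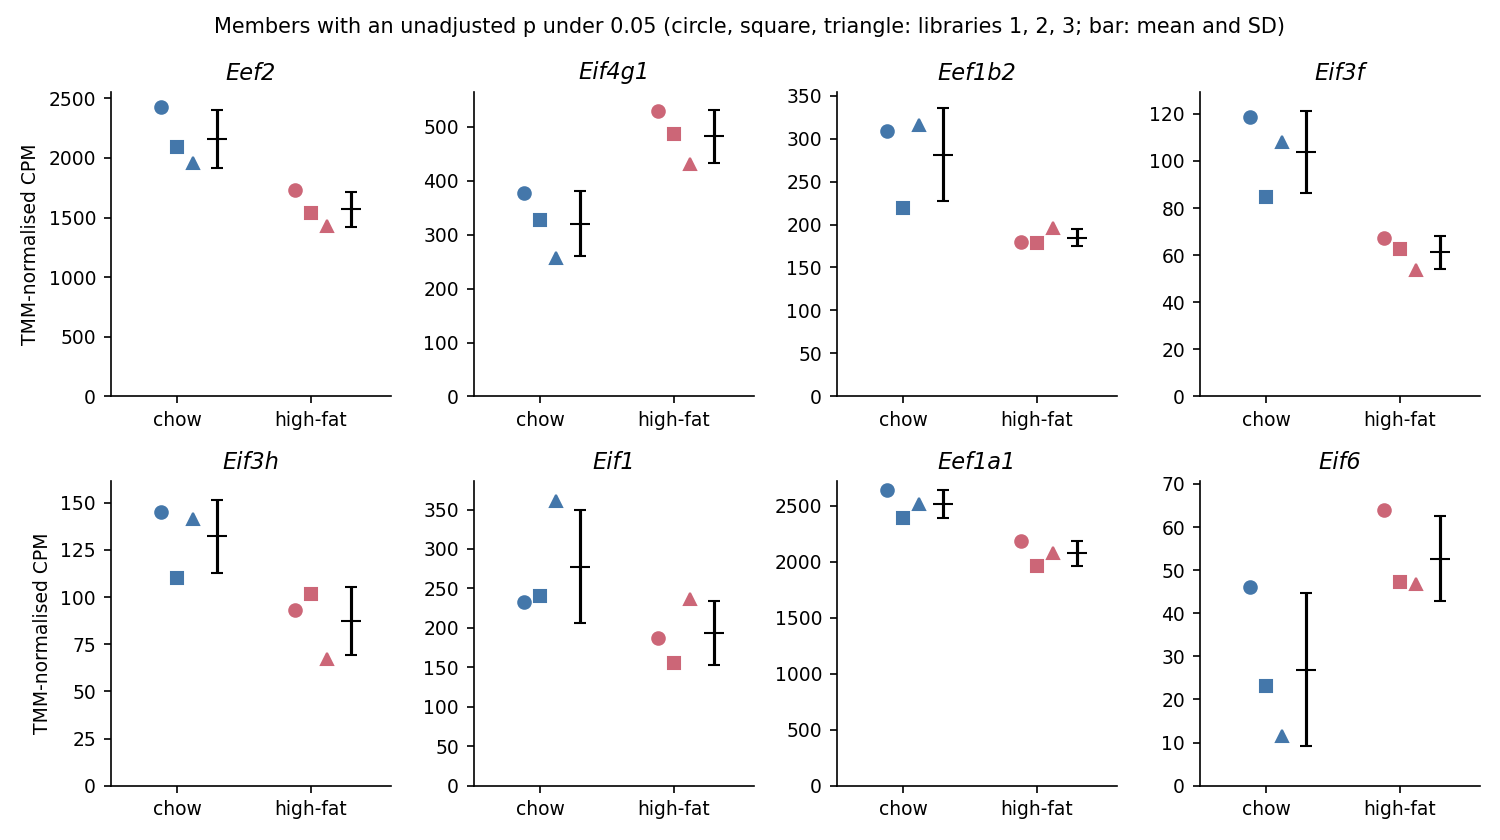
TMM-normalised CPM of the 8 translation factors with an unadjusted p under 0.05 in edgeR, each panel from 0, with the libraries of chow (blue) and high-fat diet (red) as circle, square and triangle for libraries 1, 2 and 3 and bars for mean and SD. Only Eif1 has overlapping diets, with high-fat diet library 3 at 237 CPM above chow library 1 at 232 CPM.

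Among the eIF4 genes, which bind the cap and unwind the leader, Eif4g1 was higher on the high-fat diet. The log2 fold changes of the other tested genes ran from -0.37 at Eif4a2 and Eif4b to 0.21 at Eif4e3. Over 10 tested genes of this group, 6 were higher and 4 lower, the median log2 fold change being 0.02. Without the 2 libraries that stood apart this median turned to -0.15. Eif4g1 (Entrez ID 208643, chr16:20672720-20692883) encodes the scaffold that links the cap-binding protein, the helicase and eIF3. It was read at 530.2, 486 and 432 CPM on the high-fat diet and at 378, 328 and 257 CPM on chow. All 3 high-fat diet libraries were above all 3 chow libraries. The mean was 483 ± 49.2 CPM against 321 ± 60.5 CPM (SD, n = 3 each), 1.51-fold higher, and the log2 fold change was 0.59 (SE 0.18, adjusted p = 0.317 by edgeR's quasi-likelihood test). The adjusted p was 0.0616 with DESeq2 and 0.0903 with limma-voom, and the log2 fold change of Eif4g1 was 0.39 without the 2 libraries that stood apart. The lowest chow value came from library 3, one of those 2, and exons of Eif4g1 overlap the small nucleolar RNA gene Snord66.

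The 2 other scaffolds of the family did not share the difference. Eif4g2 had a mean of 1291 ± 125 CPM on the high-fat diet and 1309 ± 54.1 CPM on chow, a log2 fold change of -0.02 (SE 0.14). Eif4g3 had 175 ± 11.3 and 172 ± 31.6 CPM, a log2 fold change of 0.02 (SE 0.20). Within each library, where scaling cancels, the ratio of Eif4g1 to Eif4g2 reads was 0.373, 0.381 and 0.368 on the high-fat diet and 0.281, 0.263 and 0.192 on chow. This ratio was nearly the same in the 3 high-fat diet libraries and higher than in every chow library. The ratio of Eif4g1 to Eif4g3 reads, with means of 2.758 on the high-fat diet and 1.928 on chow, overlapped between the diets. High-fat diet library 3 was at 2.66 and chow library 1 at 2.68. Eif4g1 was chosen for these ratios after its values were seen, so they in part restate that choice.

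Eif4a2 (Entrez ID 13682), one of the paralogous helicases of this group, was read at 323, 237 and 305 CPM on the high-fat diet and at 411, 354 and 353 CPM on chow. The diets did not overlap, and its log2 fold change was -0.37 (SE 0.17), the lowest of the group. Exons of Eif4a2 overlap Rfc4 and several small nucleolar RNA genes. The paralogue Eif4a1 lay at 341, 345 and 344 CPM on the high-fat diet and 395, 331 and 394 CPM on chow, a log2 fold change of -0.12 (SE 0.16). Chow library 2 of Eif4a1 lay under all high-fat diet libraries. Eif4b, which stimulates the helicase, had 191 ± 12.4 against 247 ± 75.7 CPM, with chow library 1 at 334 CPM well above the rest, and its partner in that role, Eif4h, had 165 ± 49.2 against 161 ± 9.59 CPM. Eif4e, the cap-binding protein, had 167 ± 26.6 against 156 ± 56.3 CPM (log2 fold change 0.10, SE 0.25). Without the 2 libraries that stood apart, the log2 fold changes of Eif4e and Eif4h turned from 0.10 to -0.18 and from 0.04 to -0.22. The relatives Eif4e2 and Eif4e3 were less read, Eif4e2 at 24.9 ± 3.73 against 24.7 ± 14.2 CPM.

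The 3 genes of the 4E-binding proteins, which block eIF4E from its scaffold until mTORC1 phosphorylates them, were tested too. Eif4ebp1 had 64.5 ± 26.8 CPM on the high-fat diet and 82.0 ± 35.3 CPM on chow, Eif4ebp2 39.2 ± 8.93 and 31.8 ± 11.8 CPM, and Eif4ebp3 was the least read, with a log2 fold change of -0.12 (SE 0.72). Summed over the 3 genes, reads stood to those of Eif4e at 0.753, 0.748 and 0.510 in the high-fat diet libraries and at 0.642, 0.743 and 1.16 in the chow libraries. The ratio overlapped between the diets and was highest in chow library 3.

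In eIF3, the complex that holds the small subunit to the scaffold, 9 of the 14 genes were lower on the high-fat diet and 5 were higher, the median log2 fold change being -0.16, and -0.38 without the 2 libraries that stood apart. Eif3f, one of the eIF3 subunits with an MPN domain (Entrez ID 66085, chr7:108934415-108941942), was read at 67.4, 62.4 and 53.6 CPM on the high-fat diet and at 119, 84.5 and 108 CPM on chow. The diets did not overlap. Its log2 fold change was -0.76 (SE 0.24, adjusted p = 0.341 by edgeR's quasi-likelihood test), 1.7-fold lower. Eif3h, the other subunit with an MPN domain (Entrez ID 68135, chr15:51786563-51865461), was read at 93.1, 102 and 67.1 CPM on the high-fat diet and at 145, 110.2 and 141 CPM on chow. It did not overlap either, and the log2 fold change was -0.60 (SE 0.23, adjusted p = 0.502). Eif3m had non-overlapping libraries at lower depth, 14.0, 14.9 and 25.4 CPM against 33.5, 26.1 and 31.4 CPM, with a log2 fold change of -0.74 (SE 0.44).

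The large core subunits of eIF3 did not share that direction. Eif3a, the scaffold of the complex, had 866 ± 126 CPM on the high-fat diet and 807 ± 112 CPM on chow (log2 fold change 0.10, SE 0.16). Eif3b had 102 ± 30.0 and 87.0 ± 7.32 CPM, and Eif3c 113 ± 15.8 and 102 ± 15.1 CPM. Eif3d, a subunit that contacts messenger RNA, had the highest log2 fold change of the complex, 0.26 (SE 0.37), from 26.7, 42.5 and 35.1 CPM on the high-fat diet and 29.3, 32.2 and 25.8 CPM on chow. These values overlapped. In each library, Eif3f reads stood to Eif3a reads at 0.0734, 0.0652 and 0.0743 on the high-fat diet and at 0.148, 0.121 and 0.117 on chow. The ratio of Eif3h to Eif3a was 0.101, 0.106 and 0.0929 against 0.181, 0.158 and 0.153. Both ratios were lower in all high-fat diet libraries than in any chow library. Eif3f and Eif3h were chosen for these ratios after their values were seen, as the eIF3 genes with the smallest p, so the ratios restate that choice.

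For start site selection and delivery of initiator tRNA, 8 of 10 genes were lower on the high-fat diet, the median log2 fold change being -0.35, and -0.21 without the 2 libraries that stood apart. Eif1 (Entrez ID 20918, chr11:100319949-100322099) was read at 187, 156 and 237 CPM on the high-fat diet and at 232, 240.0 and 361 CPM on chow. High-fat diet library 3 was above chow library 1, so the diets overlapped. The log2 fold change of Eif1 was -0.52 (SE 0.22, adjusted p = 0.570 by edgeR's quasi-likelihood test), and -0.26 without the 2 libraries that stood apart. Its paralogue Eif1b (Entrez ID 68969), much less read, was at 7.15, 19.6 and 11.9 CPM on the high-fat diet and at 23.6, 15.6 and 31.2 CPM on chow, a log2 fold change of -0.86 (SE 0.56), and -0.30 without those 2 libraries. One high-fat diet library of Eif1b, library 2, was above chow library 2.

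The subunits of eIF2, the GTP-bound carrier of initiator tRNA, were not all lower. Eif2s1, the alpha subunit whose phosphorylation limits initiation, had 39.1 ± 11.9 against 61.1 ± 15.1 CPM (log2 fold change -0.64, SE 0.33), and the log2 fold change was -0.28 without the 2 libraries that stood apart. Eif2s2, the beta subunit (Entrez ID 67204), was at 106, 142 and 122 CPM on the high-fat diet and at 155, 96.8 and 108 CPM on chow, a log2 fold change of 0.04 (SE 0.23), the highest of the group. The gamma subunit gene Eif2s3x had 65.4 ± 9.35 and 71.0 ± 12.2 CPM. Eif2a, which is a separate protein that can bring initiator tRNA without eIF2, was read at 47.5, 27.6 and 47.5 CPM on the high-fat diet and at 70.9, 55.7 and 65.9 CPM on chow. The diets did not overlap for Eif2a (log2 fold change -0.65, SE 0.31), whose exons overlap Serp1. Eif5, the GTPase activator of eIF2, had 601 ± 76.0 and 677 ± 102 CPM, and Eif1a had 403 ± 39.7 and 399 ± 46.9 CPM.

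All 5 subunits of eIF2B overlapped between the diets, and their means ran from 3.86 to 16.1 CPM in either diet. At these levels the standard errors on the log2 scale were 0.59 to 1.57, so a difference of the size seen at Eef2 was not detectable. Eif2b1 (Entrez ID 209354) had the lowest log2 fold change of the group, -0.68 (SE 1.57), from 0, 9.79 and 1.78 CPM on the high-fat diet and 11.7, 1.05 and 5.80 CPM on chow. Eif2b3 (Entrez ID 108067) had the highest, 0.25 (SE 0.75, and -0.40 without the 2 libraries that stood apart), from 15.8, 6.91 and 11.2 CPM against 9.86, 14.2 and 4.42 CPM.

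Both genes of subunit joining were higher on the high-fat diet. Eif6, which keeps the large subunit from joining too early (Entrez ID 16418, chr2:155819837-155826925), was read at 64.1, 47.2 and 46.7 CPM on the high-fat diet and at 46.2, 23.1 and 11.5 CPM on chow. The lowest high-fat diet library was just above the highest chow library. The log2 fold change was 0.97 (SE 0.45, adjusted p = 0.652 by edgeR's quasi-likelihood test), and 0.45 without the 2 libraries that stood apart. Eif5b, the GTPase that joins the subunits (Entrez ID 226982), was read at 174, 219 and 161 CPM against 142, 164 and 116 CPM, with a log2 fold change of 0.39 (SE 0.21). High-fat diet library 3 of Eif5b was under chow library 2. Exons of Eif6 overlap Gm16098 and those of Eif5b overlap Rev1.

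Eif5a, a factor that carries the modified residue hypusine and helps the ribosome past difficult peptide bonds (Entrez ID 276770), was at 210.3, 239 and 179 CPM on the high-fat diet and at 233, 189 and 145 CPM on chow. The diets overlapped, and its log2 fold change was 0.15 (SE 0.21), and near 0 without the 2 libraries that stood apart. The paralogue Eif5a2 (Entrez ID 208691) was at 0.0650, 0.512 and 2.27 CPM against 14.4, 4.84 and 0.115 CPM, a log2 fold change of -2.75 (SE 1.79). Its values differed more among the chow libraries than between the diets.

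The other regulators and modifying enzymes were mostly poorly read, and 8 of 12 tested were lower and 4 higher (median log2 fold change -0.07, and -0.16 without the 2 libraries that stood apart). Eef2k, the kinase that inhibits eEF2, had 4.91 ± 3.52 CPM on the high-fat diet and 8.83 ± 6.01 CPM on chow. Eef1akmt2, which methylates eEF1A (Entrez ID 72096), was at 0, 3.07 and 4.32 CPM on the high-fat diet and at 13.5, 5.42 and 9.59 CPM on chow, a log2 fold change of -1.94 (SE 1.38) with no overlap. Eef1aknmt, another methyltransferase of eEF1A (Entrez ID 71449), was at 9.76, 4.09 and 9.28 CPM against 4.83, 1.57 and 0.402 CPM, a log2 fold change of 1.76 (SE 1.26) with overlap, and 1.07 without those 2 libraries. These methyltransferases had the lowest and the highest log2 fold change of their group. Eif4a3, the helicase of the exon junction complex, had 23.0 ± 10.5 and 34.5 ± 19.1 CPM, a log2 fold change of -0.59 (SE 0.50) and of -1.19 without those 2 libraries, and Eif4enif1, a shuttle of eIF4E, had 65.6 ± 14.3 and 66.6 ± 15.4 CPM.

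Initiation and elongation factors were then compared. Elongation factors took 0.441%, 0.369% and 0.393% of all reads in the high-fat diet libraries and 0.557%, 0.492% and 0.489% in the chow libraries, or 0.401% ± 0.0367 and 0.512% ± 0.0383 (SD, n = 3 each). Initiation factors took 0.673% ± 0.0729 and 0.695% ± 0.0473. The ratio of elongation to initiation reads, which needs no scaling between libraries, was 0.583, 0.588 and 0.619 on the high-fat diet and 0.754, 0.763 and 0.695 on chow. Every high-fat diet library was lower than every chow library. The means were 0.596 ± 0.0196 and 0.737 ± 0.0366, and without Eif4g1 among the initiation factors 0.642 ± 0.0198 and 0.773 ± 0.0451. Eef1a1 and Eef2 make up most of the elongation reads, so this ratio speaks mainly of these 2 genes.

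Each gene given equal weight, the median log2 fold change was -0.28 over 5 elongation factors and -0.09 over 41 initiation factors, a difference of -0.19. Of the initiation factors 24 were lower and 17 higher. In each library, the median log2 CPM of elongation factors relative to the chow mean was -0.31, -0.35 and -0.40 on the high-fat diet and 0.15, -0.07 and 0.00 on chow. For initiation factors the medians were 0.06, -0.11 and -0.18 on the high-fat diet and 0.15, -0.18 and 0.01 on chow. The elongation medians thus separated the diets and the initiation medians overlapped. At 100 CPM or more on average, the median log2 fold change was -0.37 for the 4 elongation factors and 0.02 for the 18 initiation factors, and without the 2 libraries that stood apart -0.40 and -0.12. Of these, 3 of 4 elongation factors and 3 of 18 initiation factors (16.7%) had an unadjusted p under 0.05, against 22.0% of all genes of that level, so the initiation factors were not above the background. The genes were chosen with earlier results known, so the comparison of the classes is a description with no test, and it rests on 5 genes on one side. At 100 CPM or more, the elongation factors also have shorter exon lengths than most initiation factors, as given below. Without the 2 libraries that stood apart, the difference of the medians was -0.09, from -0.31 for elongation and -0.22 for initiation factors.

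**Figure D4:**
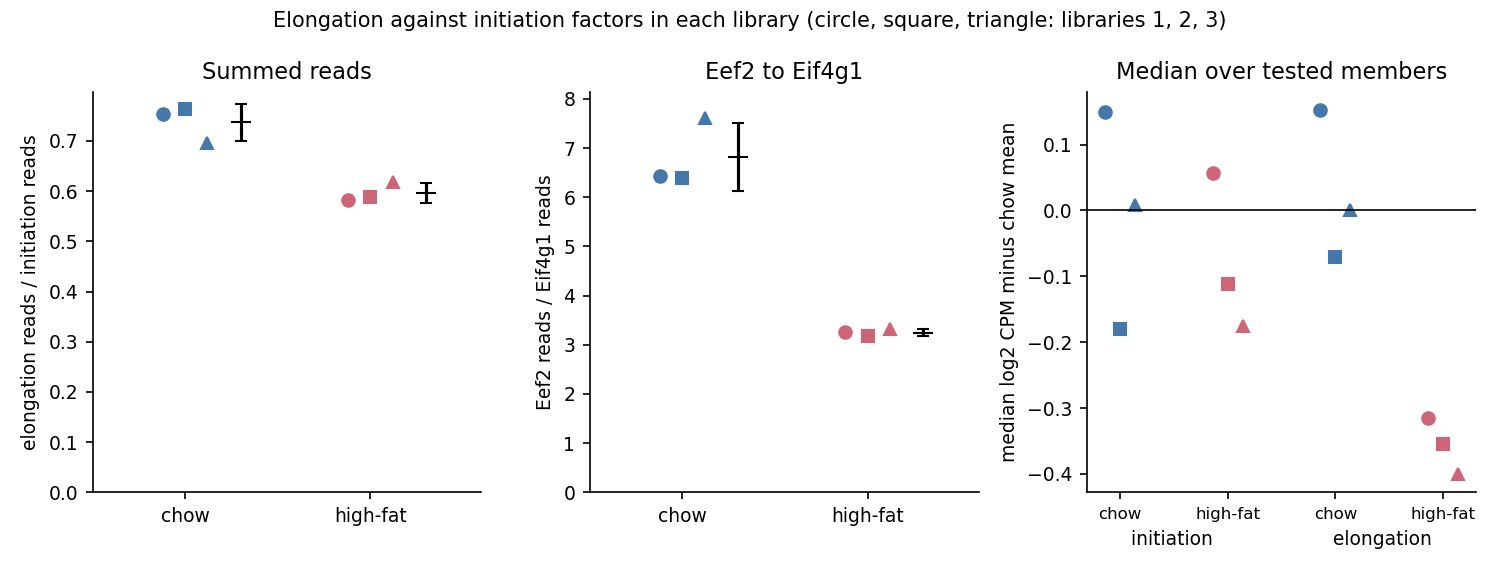
Elongation against initiation factors in each library (chow blue, high-fat diet red), as the ratio of summed reads, the ratio of Eef2 to Eif4g1 reads and the median log2 CPM over the tested genes of each class relative to the chow mean. Bars give mean and SD in the first pair of panels, whose axes start at 0, and both ratios are lower in all 3 high-fat diet libraries. The pair Eef2 and Eif4g1 was chosen after its values were seen, so its ratio restates that choice.

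Eef2 and Eif4g1 had the smallest p in each direction. The ratio of Eef2 to Eif4g1 reads was 3.26, 3.17 and 3.31 in the high-fat diet libraries and 6.44, 6.39 and 7.61 in the chow libraries. This pair was chosen after its values were seen. The ratio of Eef1a1 to Eef2, 1.27, 1.27 and 1.45 against 1.08, 1.14 and 1.29, overlapped between the diets.

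The translation factors with at least 100 CPM were also set against exon length. This is the union of all annotated exons of a gene, not the length of a single messenger. Across these 23 genes, the log2 fold change was higher at longer exon length (both on the log2 scale, Pearson r 0.648, Spearman rho 0.566). Across all 1633 genes of that level with a length, r was 0.214, and across 58 translation factors of any level it was 0.206. Eif3h, Eif1 and Eef1b2, of short exon length, were at the low end, and Eif4g1 and Eif5b, of long exon length, at the high end. The 4 elongation factors of that level were all short, from 2493 bases at Eef1a1 to 3324 at Eef2. Most of the 18 initiation factors were longer. Those shorter than Eef2 were lower on the high-fat diet too, Eif3h at -0.60, Eif1 at -0.52 and Eif3j2 at -0.32, while Eif5a, also short, was at 0.15. Class and exon length therefore cannot be told apart in the difference between the class medians. Across all 12458 tested genes with a length, r was 0.0418, so a trend over all genes left little to remove. After this smooth trend was removed in each library, r among the 23 was 0.652. The log2 fold changes were then -0.46 for Eef2 and 0.61 for Eif4g1. A length trend limited to well-read genes largely stays in these values, so their small change says nothing about it. Genes are not independent replicates and share the libraries, so the coefficients are descriptions, and the part of length or RNA integrity in them was not tested.

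**Figure D5:**
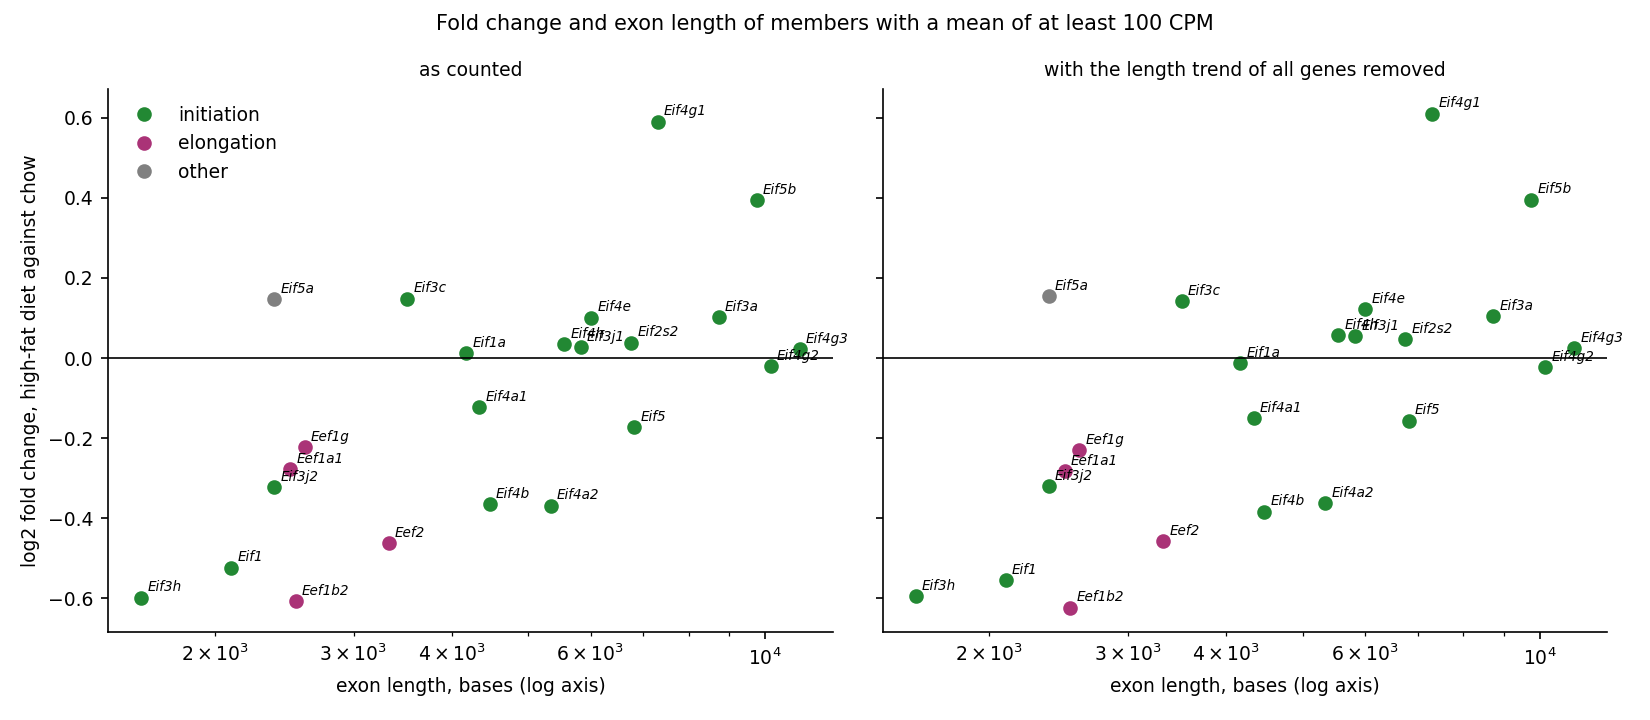
Log2 fold change, high-fat diet against chow, against exon length in bases (log axis) of the 23 translation factors averaging 100 CPM or more, as counted (left) and with the length trend of all genes removed (right). Both panels tend to run from short genes with negative values, such as Eif3h and Eif1, to long genes near or above 0, with Eif4g1 highest. Exceptions as counted include the short Eif5a at 0.15 and the longer Eif4a2 at -0.37 and Eif5 at -0.17.

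Genes that act on these factors or serve other steps of translation, also in mitochondria, were taken from 7 textbook lists. None of their tested members passed edgeR's adjusted p with the filter on low counts. With no filter 1 passed, Ppp1r15a. Of 6 eIF2 kinases and phosphatase subunits, 3 had an unadjusted p under 0.05, all lower on the high-fat diet, against 7.65% of all genes in either direction and 3.95% lower, and the median log2 fold change was -0.40. Ppp1r15a, the inducible subunit that directs dephosphorylation of eIF2 alpha, was read at 535, 428 and 577 CPM on the high-fat diet and at 819.6, 817 and 809 CPM on chow. No library overlapped, and the log2 fold change was -0.67 (SE 0.16, adjusted p = 0.148 by edgeR's quasi-likelihood test, 0.0415 by edgeR with no filter, 0.0019 by DESeq2 and 0.00645 by limma-voom). Among the kinases, Eif2ak2, which senses double-stranded RNA, had 3.07 against 20.8 CPM and Eif2ak4, which senses uncharged tRNA, 26.8 against 51.5 CPM, both without overlap. Eif2ak1, the haem-regulated kinase, went the other way with 16.0 against 6.56 CPM, also without overlap, and Eif2ak3, the kinase of the endoplasmic reticulum, overlapped at 16.5 against 11.6 CPM.

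The other lists are read against the same 7.65% of all genes. In the mTORC1, S6 kinase and Mnk list, 1 of 13 genes (7.69%, at the background) had an unadjusted p under 0.05, Mknk2, a kinase of eIF4E, with means of 131 against 201 CPM (log2 fold change -0.62, SE 0.21), and the median was -0.01. The median of this list was 0.06 without the 2 libraries that stood apart. Poly(A) binding genes had 0 of 5 (median -0.25), reinitiation factors 0 of 3 (median 0.38, and near 0 without the 2 libraries) and release and recycling factors 0 of 6 (median 0.07, and near 0 without them). The enzymes of hypusine and diphthamide, the modified residues of eIF5A and eEF2, had 1 of 9 (11.1%), Dhps, lower on the high-fat diet. The median of this list was -0.29 and turned to 0.71 without the 2 libraries that stood apart. Mitochondrial translation factors had 1 of 10 (10%), Mtrf1, lower on the high-fat diet (median -0.50, and -0.30 without the 2 libraries), and all were poorly read.

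Elongation factors share with ribosomal protein genes a pyrimidine tract at the very start of the messenger, through which mTORC1 acts on their translation. Of 10 textbook genes of this kind among the factors and Pabpc1, 5 had an unadjusted p under 0.05, all lower (Eef2, Eef1b2, Eef1a1, Eif3f and Eif3h), 9 had a negative log2 fold change and the median was -0.32, and -0.52 without the 2 libraries that stood apart. Over all genes 3.95% had such a p and were lower, and 10.9% of those averaging 100 CPM or more. These 10 genes were listed with earlier results known, and the 5 are among the 8 already given. The 81 cytosolic ribosomal protein genes had a median of -0.38, with 76 negative, 24 at an unadjusted p under 0.05, all lower, and 35 with every high-fat diet library below every chow library. The shares were 29.6% and 43.2%, against 3.95% and 7.87% of all genes and 10.9% and 12.9% of those averaging 100 CPM or more, and the median was -0.44 without the 2 libraries that stood apart. By library, their median log2 CPM relative to the chow mean was -0.28, -0.40 and -0.47 on the high-fat diet and 0.14, -0.13 and -0.01 on chow, close to the medians of the elongation factors. None of the 81 passed edgeR's adjusted p, 3 passed with DESeq2 and 1 with limma-voom. These short genes have many processed pseudogenes, and the treatment of reads with several matches is not stated in those sources.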

How the data were processed

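RNA-seq counts of 6 libraries of sorted satellite cells were used, 3 per diet. The deposited counts, made by the authors, give reads per gene as whole numbers under Entrez IDs and are not normalized. Per the submitters' processing notes, Bowtie2 and featureCounts were used with the builds GRCm38 and mm10. Versions, annotation, strand setting and treatment of reads with several matches are not given in the sources used here. Genes that overlap another or have copies are therefore uncertain. Overlaps were looked up through GENCODE M21 exons under the same symbol and found for 23 of the 66. Genes without exons under that symbol, such as Eef1aknmt and Eif4a3l1, could not be checked, so 23 is a lower bound. Of 27179 IDs, 25275 were matched to RefSeq symbols of GRCm38.p6, 18 more through GENCODE M21, and 1886 had none. RefSeq names 14 pseudogenes and 1 long noncoding RNA like the rule. Only Eif1-ps3, with 6 reads in all, and Eif2c5, with 0, were among the IDs.

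The tests ran in edgeR 4.0.16 under R 4.3.3: filterByExpr (minimum count 10), TMM scaling and the two-sided quasi-likelihood test (glmQLFit, glmQLFTest) with diet as the only term, fitted on all 13202 genes that passed, with Benjamini-Hochberg adjustment over all of them and a threshold of 0.05. The standard error of a log2 fold change is its size over the root of the F statistic. CPM are counts scaled to a standard library size with TMM. Lengths are the union of GENCODE M21 exons. The code was tested on simulated data. Reads carry no molecular identifiers here, so floors speak of counting error alone. All pairs of libraries differed by more than sampling noise.

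Full values were given for the 8 genes with the smallest p, all elongation factors and the highest and lowest log2 fold change of each role. Other genes are given for their role, level or list. Members and lists were chosen with earlier results of these data known. Alternatives were 3 other scalings, 2 filters, DESeq2 1.42.0, limma-voom (limma 3.58.1) with and without quality weights, robust dispersions, an adjusted p under 0.1, no mitochondrial genes, the replicate number as a block, leaving out each library, and leaving out high-fat diet library 1 with chow library 3. The length correction (span 0.3) was chosen after seeing the data.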

Additional observations from a re-analysis of the deposited data

How the results depend on the processing

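No translation factor passed edgeR's test under 3 other scalings, 2 filters, robust dispersions, an adjusted p under 0.1, the length correction or any set of libraries. With DESeq2, limma-voom and limma-voom with quality weights, 1 passed, Eef2. The number of all genes called was 34, and 163 with no filter, 198 with DESeq2, 99 with limma-voom, 112 with quality weights, 9 to 44 when 1 library was left out (9 without high-fat diet library 2, 10 without chow library 2 or chow library 3, 18 without high-fat diet library 1, 19 without chow library 1) and 1 without both libraries that stood apart. The difference of the class medians, -0.19, was -0.27 to -0.11 when 1 library was left out and -0.087 without both. The cause of these changes was not tested.

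Of 21 translation factors given in full, 16 kept their direction under all 20 alternatives. The others changed sign. Leaving out 1 library in turn moved Eef1d between -0.062 (without high-fat diet library 1) and 0.44, Eif2b1 between -2.78 and 0.18 (without chow library 1), Eif2b3 between -0.092 (without chow library 3) and 0.66, Eif2s2 between -0.10 (without chow library 2) and 0.27, and Eif5a between -0.010 (without chow library 3) and 0.33. Eif2b3 was also negative without high-fat diet library 1 (-0.06) and with quality weights (-0.10), and Eif2s2 was also negative without chow library 3 (-0.03) and, in another fit, without high-fat diet library 2 (-0.08). Without both libraries, Eef1d was at -0.020, Eif2b3 at -0.40 and Eif5a at -0.0038.

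Same-numbered libraries correlated across genes, as deviations from their diet means, at 0.0245, 0.0346 and -0.0261, so the numbers were not taken as pairs. With the replicate number as a block, 45 genes of all were called and 0 translation factors, and 39 with the length correction added. Counts limit the genes under 10 CPM, 9 of the 60, where standard errors exceeded most differences.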
